A study of Homo sapiens with 4 samples.

Results

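The 6 genes HMGCLL1, BDH1, BDH2, OXCT1, ACAT1 and AACS encode enzymes that make, interconvert or use ketone bodies, and they were taken by symbol from a table of 56832 genes. Their RNA was measured in A375, a human melanoma cell line whose genotype the labels give as WT. Cultures in serum-containing DMEM received either 1 mM octanoate, a medium-chain saturated fatty acid, or isopropanol as the vehicle, for 48 h. Each group has 2 libraries, made from total RNA. The labels do not say whether the replicates came from separate cultures. The p-values therefore measure only the spread between these libraries, shared in part across genes, and this spread may be technical. All 6 genes passed the filter of a mean normalised count of at least 10, as did 20250 genes of the table.

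Ketone bodies are small fuels that liver mitochondria make from the acetyl-CoA released by fatty acid oxidation. Acetoacetate is formed by way of HMG-CoA, and BDH1 reduces it to beta-hydroxybutyrate. Other tissues run the last step in reverse and then activate acetoacetate, either in mitochondria through OXCT1 for oxidation or in the cytosol through AACS for lipid and sterol synthesis. Medium-chain fatty acids such as octanoate enter mitochondria largely without the carnitine shuttle and are known as ketogenic fuels in liver.

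Recovered read totals ran from 67785956 to 78005035 per library. The counts of replicates differed beyond sampling noise, so each library entered on its own. Of the 8 melanocyte lineage markers, 7 passed the filter. The regulators SOX10 and MITF stood at no less than 34072 and 2414 normalised counts in any library, while the pigment enzyme gene TYR stood at no more than 3.93. The summed level of these markers, held mostly by SOX10, was 49284 and 45003 in vehicle and 43603 and 38530 in octanoate. SOX10 was not called (limma adjusted p 0.209). In octanoate S100B fell by 54.0% (limma adjusted p 9.15e-12) and MITF fell by 28.2% (2.33e-06), while PMEL was 46.3% higher (0.0289). PMEL had at most 102 reads in a library and missed the threshold in the authors' deposited table (adjusted p 0.224). The pigment genes DCT, MLANA and TYRP1 were not called (limma adjusted p 0.106, 0.764 and 0.209). Of the 7 hepatocyte markers, APOA1 had 0 reads in every library, ALB had a normalised count of at most 2.94, and the sum, held mostly by CPS1, was 2277 and 2235 in vehicle and 1853 and 1919 in octanoate. CPS1 fell by 17.2% in octanoate (limma adjusted p 0.00375), and TTR, the other hepatocyte marker called, had at most 24 reads in a library. The sum of the 6 fibroblast markers ran from 2078 to 2415, with COL1A1 (fell by 38.1%, limma adjusted p 3.63e-05) and COL1A2 (fell by 49.7%, 0.0394) called lower. COL1A2 had at most 47 reads in a library. PDGFRB and LUM, the fibroblast markers with the highest mean levels, were not called (limma adjusted p 0.427 and 0.840), nor were DCN and COL3A1. The summed level of the 4 leukocyte markers was at most 35.3. The part of these marker levels in the results was not tested. In bulk RNA, fewer cells of a type and less RNA per cell cannot be told apart.

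Under octanoate the RNA of both dehydrogenases and of both enzymes that activate acetoacetate was lower: BDH1 fell by 28.4%, BDH2 fell by 20.1%, OXCT1 fell by 15.2% and AACS fell by 14.5%. The thiolase gene ACAT1 was 11.2% higher, and the lyase gene HMGCLL1 was barely read. Of the 6 genes, 4 were called lower, 1 higher and 1 was not called by limma at an adjusted p under 0.05, beside 29.9% of all genes tested called in either direction and 13.7% called lower. Where the mean reached at least 400, a range that holds all 5 of the called members, 38.6% of genes were called. The median log2 difference was -0.23 over the 6 genes and 0.01 over all genes tested. The groups did not overlap for 5 of the 6, against 63.1% of all genes tested, and octanoate was the lower group for 4 of these, against 30.5% of all genes tested. The count of called members changed with the settings. When 1 of the 4 libraries was left out, some calls were lost, and not the same ones each time. The 5 called members kept their sign in those fits. The count was 1, BDH1, without an intensity trend in the variance (8.02% of all genes called) or with no filter on low counts (5.97% of 43449 genes). On recovered reads, edgeR called 5 members (32.0% of all genes called) and DESeq2 4 of the 5 that it gave an adjusted p (27.5%), and 5 were called with GC content and length trends removed (45.8%).

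**Figure D1:**
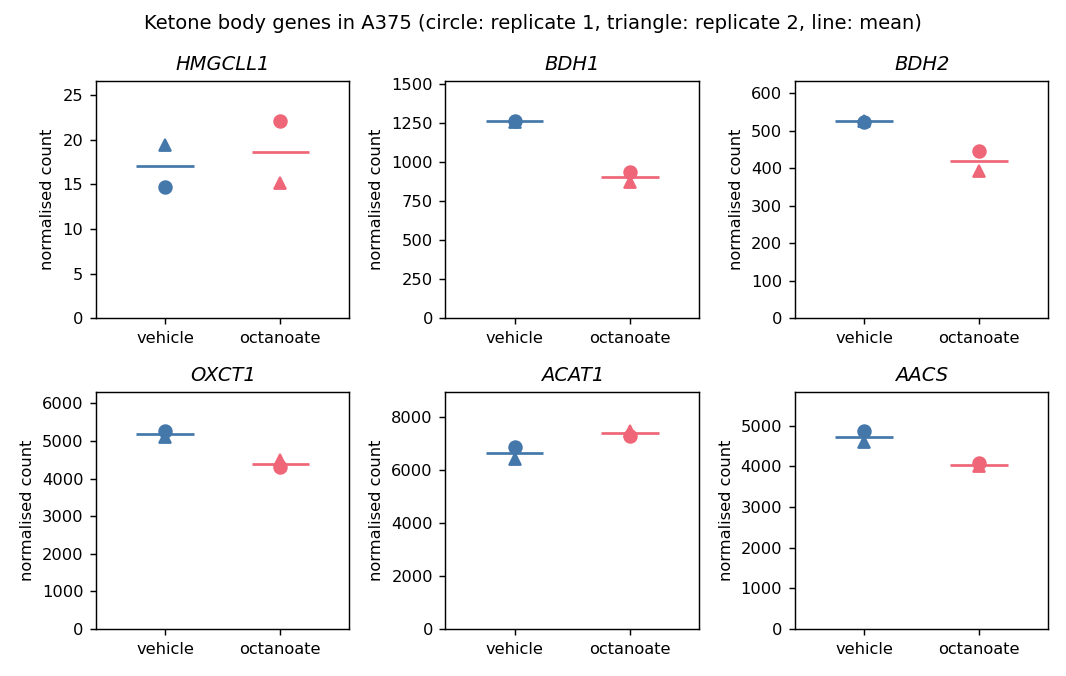
Normalised count (y axis, from 0) of each of the 6 genes in the vehicle and octanoate groups; circles are replicate 1, triangles replicate 2 and lines the group means (n = 2). BDH1, BDH2, OXCT1 and AACS lie lower in both octanoate libraries, ACAT1 lies higher, and the groups of HMGCLL1 overlap.

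**Figure D2:**
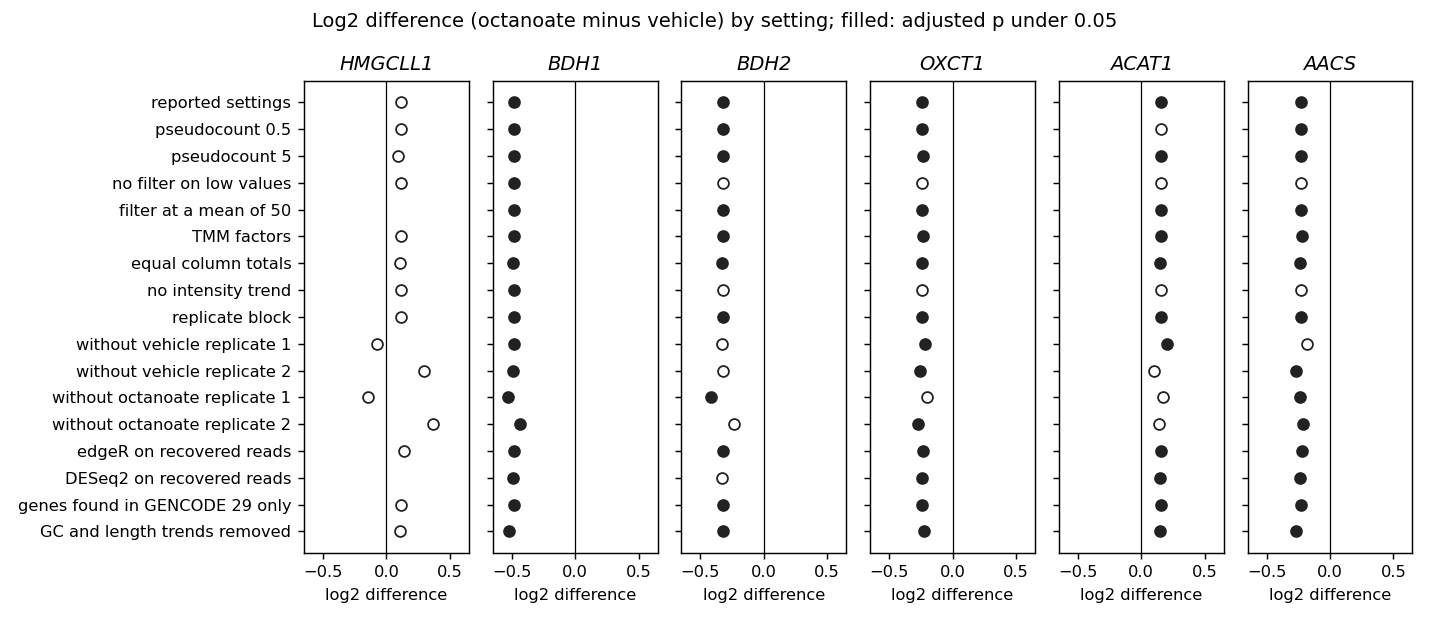
Log2 difference of octanoate minus vehicle (x axis) of each of the 6 genes under the reported settings and 16 alternatives (rows); a filled circle has an adjusted p under 0.05. BDH1 is filled in each row, HMGCLL1 is filled in none, changes sign and has no value in 2 rows, and the other genes keep their sign and are open in some rows.

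BDH1 encodes the mitochondrial dehydrogenase that interconverts acetoacetate and beta-hydroxybutyrate. The gene lies on chromosome 3 from 197509783 to 197573323 on the minus strand (GRCh38, GENCODE 29). Its normalised count was 1266 and 1259 in vehicle and 934 and 875 in octanoate. Both octanoate libraries were lower than both vehicle libraries, and the gap between the groups was far wider than the gap within either. The log2 difference was -0.48 (SE 0.08, 95% interval -0.64 to -0.33, limma adjusted p 2.56e-05). BDH1 was the one member called under each of the 16 alternative settings, with log2 differences from -0.53 to -0.44. Transcripts of BDH1 share at most 113 bases with those of 4 other genes at an identity of at least 95%.

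BDH2 encodes a cytosolic dehydrogenase that was named for activity on beta-hydroxybutyrate and that has also been tied to the mammalian siderophore. It lies on chromosome 4 from 103079435 to 103099883 on the minus strand. Its normalised count was 523 and 527 in vehicle and 447 and 393 in octanoate. The vehicle libraries were nearly equal, and octanoate 2 was the lowest of the 4. The log2 difference was -0.32 (SE 0.10, 95% interval -0.53 to -0.12, limma adjusted p 0.0139). The call was lost without vehicle 1 (adjusted p 0.0676), without vehicle 2 (0.0760), without octanoate 2 (0.176) and with DESeq2 on the recovered reads (0.0537). Its count is uncertain, since 736 bases match the pseudogene BDH2P1 at 97.6% identity and 397 exon bases overlap SLC9B2 on the same strand. BDH2P1 stood between 0.969 and 3.93 normalised counts. SLC9B2 stood above BDH2 and went the other way, at 1414 and 1372 in vehicle and 1696 and 1635 in octanoate (log2 difference 0.26, limma adjusted p 0.00625).

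OXCT1 encodes the succinyl-CoA transferase that activates acetoacetate in mitochondria, the committed step of ketone body oxidation. It lies on chromosome 5 from 41730065 to 41870519 on the minus strand. Its normalised count was 5259 and 5111 in vehicle and 4296 and 4502 in octanoate. Each octanoate library lay under each vehicle library. The log2 difference was -0.24 (SE 0.06, 95% interval -0.36 to -0.12, limma adjusted p 0.00334). Without octanoate 1 the adjusted p was 0.0502. In GENCODE 29, 229 exon bases overlap the antisense gene OXCT1-AS1, and whether reads were counted by strand is not given in the sources used here.

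AACS encodes the cytosolic acetoacetyl-CoA synthetase, which directs acetoacetate to lipid and sterol synthesis. It lies on chromosome 12 from 125065379 to 125143333 on the plus strand. Its normalised count was 4866 and 4600 in vehicle and 4073 and 4018 in octanoate. The octanoate libraries were close to each other and under both vehicle libraries. The log2 difference was -0.23 (SE 0.06, 95% interval -0.35 to -0.10, limma adjusted p 0.00541). Without vehicle 1 the adjusted p was 0.0788. No exon overlap with another gene and no shared stretch of at least 100 bases was found for AACS.

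ACAT1 encodes the mitochondrial acetoacetyl-CoA thiolase, which splits acetoacetyl-CoA after OXCT1 has acted, can run in the direction of synthesis, and also serves isoleucine breakdown. It lies on chromosome 11 from 108121516 to 108147776 on the plus strand. Its normalised count was 6887 and 6421 in vehicle and 7315 and 7476 in octanoate. Both octanoate libraries were above both vehicle libraries. The log2 difference was 0.15 (SE 0.06, 95% interval 0.03 to 0.27) and lay at the edge of the threshold (limma adjusted p 0.0497). The adjusted p was 0.0501 with a pseudocount of 0.5, 0.321 without vehicle 2, 0.112 without octanoate 1 and 0.228 without octanoate 2. ACAT1 has exon overlaps of 163 and 212 bases with the antisense genes AP002433.1 and AP002433.2.

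HMGCLL1 encodes an HMG-CoA lyase found outside mitochondria. It lies on chromosome 6 from 55434369 to 55579214 on the minus strand. It had 15 and 20 reads in vehicle and 23 and 14 in octanoate. The groups overlapped, and the highest and the lowest read count were both found in octanoate. The log2 difference was 0.11 (SE 0.39, 95% interval -0.69 to 0.92, limma adjusted p 0.865), so a change from 0.618-fold to 1.89-fold lies within the interval and a smaller one was not detectable at this depth. Its sign turned without vehicle 1 (-0.08) and without octanoate 1 (-0.15).

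In the authors' deposited table, 3 of the 6 genes had an adjusted p under 0.05, beside 25.1% of the genes with an adjusted p under 1 there. In the authors' deposited table the log2 fold change was -0.48 for BDH1 (adjusted p 2.87e-05), -0.24 for OXCT1 (0.00221) and -0.23 for AACS (0.00493). ACAT1 (0.15, adjusted p 0.0610) and BDH2 (-0.32, adjusted p 0.0932) had the same sign as here but missed the threshold in the authors' deposited table, where HMGCLL1 is listed with an adjusted p of 1.

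The members were then compared with each other within a library, where the scaling between libraries plays no part. A change in such a ratio restates the log2 differences given above and is not a further test of them. ACAT1 and OXCT1 act in sequence on the oxidative route and had log2 differences of opposite sign, with the ACAT1 call at the threshold. The log2 ratio of the normalised count of ACAT1 to that of OXCT1 was 0.39 and 0.33 in vehicle and 0.77 and 0.73 in octanoate, a difference of 0.39. The log2 ratio of AACS to OXCT1, the cytosolic against the mitochondrial way of activating acetoacetate, was -0.11 and -0.15 in vehicle and -0.08 and -0.16 in octanoate, a difference of 0.01 with overlapping groups. That of BDH1 to OXCT1 was -2.05 and -2.02 in vehicle and -2.20 and -2.36 in octanoate, a difference of -0.25. Over these 3 ratios the exact two-sided permutation p was 0.33 for ACAT1 and for BDH1, which is the smallest that 2 libraries against 2 can give, and 1 for AACS.

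Levels of different genes were compared per kilobase of summed exon length. On this scale the mean over the 4 libraries was 1258 normalised counts per kilobase for ACAT1, 1143 for OXCT1, 273 for AACS, 140 for BDH2, 119 for BDH1 and 3.72 for HMGCLL1. ACAT1 and OXCT1 thus had the most RNA per kilobase among the 6 genes and HMGCLL1 the least. Per kilobase, ACAT1 lay above 85.8% and OXCT1 above 84.5% of 18730 protein-coding genes, AACS above 59.6%, BDH2 above 50.7%, BDH1 above 48.9% and HMGCLL1 above 26.2%. The order of ACAT1 and OXCT1 depended on the group on this length: per kilobase OXCT1 stood at 1254 and 1219 and ACAT1 at 1233 and 1150 in vehicle, where their values interleave, and OXCT1 at 1024 and 1073 and ACAT1 at 1310 and 1339 in octanoate. With the longest transcript as the length ACAT1 lay above OXCT1 in every library, at 3050 and 2844 against 1552 and 1508 in vehicle and at 3240 and 3311 against 1268 and 1329 in octanoate. BDH2 stood at 155 and 156 per kilobase and BDH1 at 139 and 138 in vehicle. In octanoate BDH2 stood at 132 and 116 and BDH1 at 102 and 96.0. The order of BDH2 and BDH1 turned when the longest transcript was used as the length, with means of 170 for BDH2 and 306 for BDH1.

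**Figure D3:**
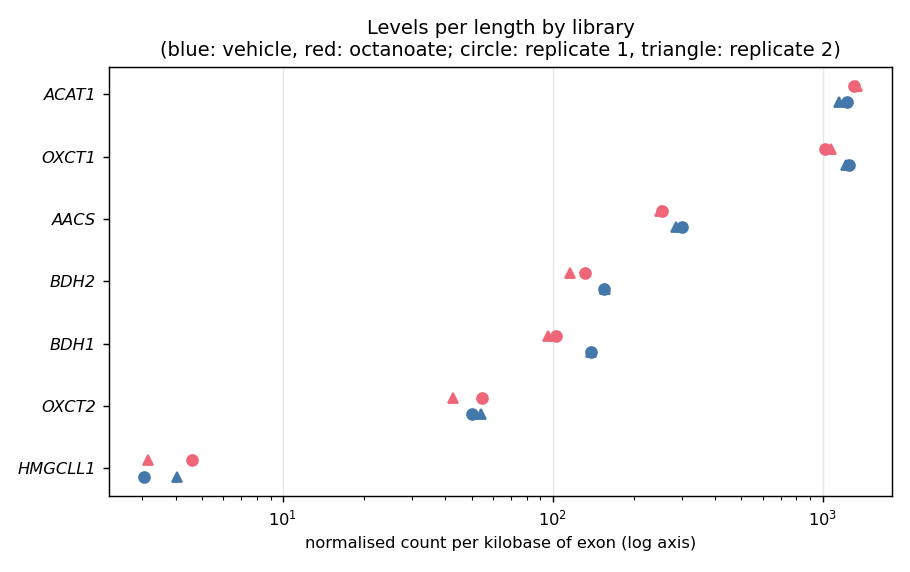
Normalised count per kilobase of summed exon length (x axis, log scale) in each library for the 6 genes and for OXCT2; blue is vehicle, red octanoate, circles replicate 1 and triangles replicate 2. ACAT1 and OXCT1 lie near 1258 and 1143 on average, and HMGCLL1 lies lowest, near 3.72.

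Among the 6 genes, HMGCLL1 was the one near the limit of detection, with at most 23 reads in a library. Its normalised counts of 14.7 and 19.4 in vehicle had exact Poisson 95% intervals from 8.24 to 24.3 and from 11.8 to 29.9, and those of 22.1 and 15.2 in octanoate from 14.0 to 33.2 and from 8.29 to 25.5. All 4 intervals overlap, and they cover counting error only. The genes of the dehydrogenase, activation and thiolase steps held at least 363 reads in every library, the lowest being BDH2 in octanoate 2. OXCT2, the testis relative of OXCT1, stood at 91.3 and 98.8 in vehicle and 100.1 and 78.0 in octanoate, and its groups overlapped (log2 difference -0.10, limma adjusted p 0.727). OXCT2 shares 1554 bases with the pseudogene OXCT2P1 at 98.4% identity, so its count is uncertain. Per kilobase, OXCT1 held between 18.7 and 25.1 times the level of OXCT2.

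The other genes of ketone body synthesis, use and transport counted 12 as reported here, of which 11 were tested, 3 called higher and 2 called lower, with a median log2 difference of -0.08. Among all genes tested 16.2% were called higher and 13.7% lower. The genes called higher encode carriers of monocarboxylates. SLC16A6, a carrier known to export ketone bodies from liver cells, stood at 110 and 91.1 in vehicle and 397 and 424 in octanoate, a log2 difference of 2.02 (SE 0.13, adjusted p 2.45e-11 by limma). Its count is uncertain, because 1059 bases match the pseudogene SLC16A6P1 at 97.3% identity and 144 exon bases overlap ARSG on the opposite strand, which stood at 162 and 159 in vehicle and 303 and 325 in octanoate. SLC16A3, which mainly exports lactate, had a log2 difference of 0.49 (SE 0.07, adjusted p 5.26e-06 by limma), and shares sequence with 43 other genes. SLC16A7, a carrier with high affinity for pyruvate, had a log2 difference of 0.30 (SE 0.07, adjusted p 0.00299 by limma), and shares at most 332 bases with other genes. Its adjusted p was 0.0949 without vehicle 1, 0.105 without octanoate 2 and 0.190 with DESeq2. SLC16A1, the widespread carrier for lactate and ketone bodies, stood at 17492 and 17493 in vehicle and 17714 and 16779 in octanoate, with overlapping groups and a 95% interval of the log2 difference from -0.14 to 0.10.

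**Figure D4:**
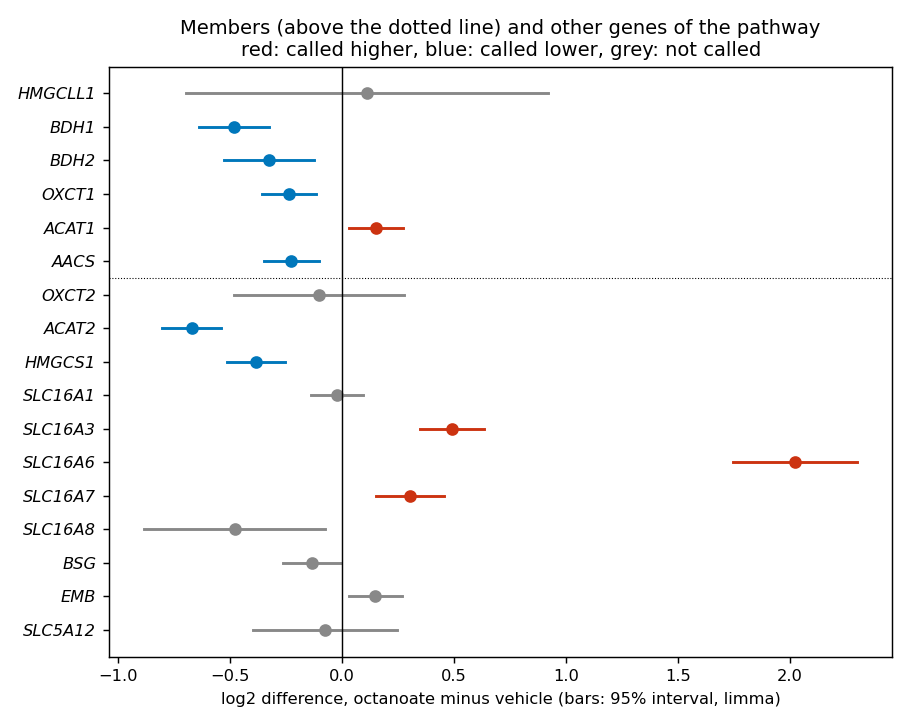
Log2 difference of octanoate minus vehicle (x axis) with its 95% interval from limma for the 6 genes, above the dotted line, and for the 11 tested genes of the list on synthesis, use and transport, below it; red marks genes called higher, blue lower and grey not called. Among the members BDH1 lies lowest at -0.48, and the largest value of the list is that of SLC16A6 at 2.02.

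The cytosolic enzymes that take acetyl-CoA to HMG-CoA on the way to sterols were both called lower. ACAT2, the cytosolic acetoacetyl-CoA thiolase, stood at 3494 and 3262 in vehicle and 2131 and 2108 in octanoate, a log2 difference of -0.67 (SE 0.06, adjusted p 1.35e-08 by limma). ACAT2 is uncertain because its exons overlap SOD2, SOD2-OT1 and TCP1 on the opposite strand. HMGCS1, the cytosolic HMG-CoA synthase, stood at 3489 and 3601 in vehicle and 2813 and 2624 in octanoate, a log2 difference of -0.38 (SE 0.06, adjusted p 4.32e-05 by limma), and overlaps the antisense gene AC114947.2. The cytosolic thiolase gene ACAT2 and the mitochondrial thiolase gene ACAT1 were thus called in opposite directions, with the ACAT1 call resting at the threshold.

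Leucine is broken down to acetoacetate by way of HMG-CoA, and its list held 13 genes, all tested, with 2 called higher and 3 called lower and a median log2 difference of 0.02. This share is near the 38.6% called among all genes with a mean of at least 400, a range that holds the list except BCKDHA. Among all genes tested 29.9% were called in either direction. SLC7A5, a carrier that brings leucine into the cell, had a log2 difference of 0.40 (SE 0.06, adjusted p 1.93e-05 by limma), and BCAT2, the mitochondrial transaminase, had one of 0.22 (SE 0.06, adjusted p 0.0114 by limma). The SLC7A5 count is uncertain, since 604 bases match SMG1P3 at 95.7% identity and 537 match SLC7A5P1 at 96.6%. BCAT2 shares at most 118 bases with other genes. The genes called lower act after the transaminase, but other genes of those steps were not called. Their log2 differences were 0.02 for DBT, -0.02 for DLD, -0.06 for MCCC1 and 0.15 for AUH. BCKDHB, a subunit of the branched-chain ketoacid dehydrogenase, had a log2 difference of -0.35 (SE 0.08, adjusted p 0.00158 by limma). MCCC2, a subunit of methylcrotonyl-CoA carboxylase, had one of -0.21 (SE 0.06, adjusted p 0.00580 by limma), and IVD, isovaleryl-CoA dehydrogenase, named after its values were seen, one of -0.18 (limma adjusted p 0.0268). The BCAT2 call was lost without vehicle 2 (adjusted p 0.183) and without octanoate 1 (0.0693), and the MCCC2 call without octanoate 2 (0.0694). BCKDHA stood between 11.8 and 18.4 normalised counts and shares 1660 exon bases with AC011462.1 on the same strand, so its count is uncertain.

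Tyrosine breakdown also yields acetoacetate, through fumarylacetoacetate. Of its 5 genes reported here 4 were tested, 1 called higher and 1 lower, with a median log2 difference of -0.03, beside 29.9% of all genes tested called in either direction. GSTZ1, the maleylacetoacetate isomerase, had a log2 difference of -0.29 (SE 0.09, adjusted p 0.0114 by limma), which was not called without vehicle 1 (0.201) or without octanoate 2 (0.0608). FAH, the hydrolase that releases acetoacetate, was named after its values were seen and had a log2 difference of 0.22 (limma adjusted p 0.0180). Both missed the threshold in the authors' deposited table, with an adjusted p of 0.0514 for FAH and 0.0537 for GSTZ1. The steps before GSTZ1 were barely read. TAT, the tyrosine transaminase, had 10 and 31 reads in vehicle and 9 and 10 in octanoate, and HPD, the hydroxyphenylpyruvate dioxygenase, had 26 and 18 in vehicle and 26 and 23 in octanoate. HGD, the ring-opening dioxygenase, had 1 and 2 reads in vehicle and 0 and 4 in octanoate.

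Among 11 regulators and receptors of ketone metabolism, 6 were tested, 2 called higher and 0 lower by limma, with a median log2 difference of 0.19. This share is near the 29.9% of all genes tested that were called. PDK4, a kinase that shuts pyruvate dehydrogenase and a PPAR target, stood at 2157 and 2147 in vehicle and 5288 and 5479 in octanoate, a log2 difference of 1.32 (SE 0.06, adjusted p 2.67e-14 by limma). CPT1A, the carnitine acyltransferase that admits long-chain fatty acids to mitochondria, had a log2 difference of 0.48 (SE 0.06, adjusted p 4.27e-07 by limma). CPT1A shares at most 297 bases with other genes. PPARA, the receptor that controls ketogenic genes in liver, had one of -0.08 with a 95% interval from -0.23 to 0.07. The hormone gene FGF21, a PPARA target in liver, had 2 and 4 reads in vehicle and 19 and 13 in octanoate and fell under the filter. The receptors for ketone bodies and short-chain acids were near 0: HCAR2 had at most 2 reads and FFAR3 at most 2 in a library, and HCAR3, found under its older symbol GPR109B, at most 3. The liver factor FOXA2 had at most 9 reads in a library and the monocarboxylate carrier SLC5A8 at most 16, both highest in vehicle 2.

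For each called member, the 2 genes with a mean of at least 100 that lay nearest in centred log2 values over the 4 libraries were sought among 13481 genes. The Euclidean distances were 0.0221 for RP11-18C24.6 and 0.0255 for SIPA1L2 from BDH1. They were 0.0219 for ADSSL1 and 0.0277 for PSMD9 from BDH2, and 0.00912 for HLA-DOA and 0.0121 for TPX2 from OXCT1. From ACAT1 they were 0.00540 for DCP1A and 0.00814 for GLUD2, and from AACS 0.00755 for ETV5 and 0.00916 for RNF157. With 4 libraries in 2 groups, such a profile holds little more than the difference between the groups and the spread within each.

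Promoter windows of RefSeq (GRCh38.p14, 250 bases before to 50 after the gene start) were matched for all 6 members. Those of BDH1, OXCT1 and ACAT1 are shown because these genes had the largest fall, the fall at the step that commits ketone bodies to oxidation, and the rise. Capitals mark matches to the GC box GGGCGG on either strand, where SP1 is known to bind. The windows lie at chr3:197573294-197573593 (minus strand) for BDH1, chr5:41870376-41870675 (minus strand) for OXCT1 and chr11:108121317-108121616 (plus strand) for ACAT1, each printed 5′ to 3′ on the strand of the gene.
BDH1: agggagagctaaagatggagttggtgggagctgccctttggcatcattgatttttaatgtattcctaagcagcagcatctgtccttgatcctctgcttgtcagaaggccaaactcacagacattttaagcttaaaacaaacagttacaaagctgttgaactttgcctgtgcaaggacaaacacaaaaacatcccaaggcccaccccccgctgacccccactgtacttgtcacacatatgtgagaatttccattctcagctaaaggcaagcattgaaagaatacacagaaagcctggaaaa
OXCT1: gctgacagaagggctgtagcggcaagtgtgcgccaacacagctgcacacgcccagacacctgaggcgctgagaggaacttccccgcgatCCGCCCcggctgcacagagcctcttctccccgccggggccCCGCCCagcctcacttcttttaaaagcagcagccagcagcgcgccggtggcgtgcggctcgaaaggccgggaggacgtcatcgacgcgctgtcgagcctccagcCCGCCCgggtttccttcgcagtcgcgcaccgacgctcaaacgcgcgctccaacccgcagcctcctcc
ACAT1: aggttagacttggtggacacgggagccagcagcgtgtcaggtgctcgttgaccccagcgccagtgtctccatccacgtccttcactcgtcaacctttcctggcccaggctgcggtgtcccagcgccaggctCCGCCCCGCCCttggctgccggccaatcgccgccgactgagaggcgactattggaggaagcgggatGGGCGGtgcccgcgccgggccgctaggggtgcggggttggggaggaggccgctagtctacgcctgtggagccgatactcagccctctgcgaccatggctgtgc
The GC box matched 3 times each in the windows of OXCT1, ACAT1 and AACS, once in that of HMGCLL1 and not in those of BDH1 and BDH2, and 44.6% of 27305 windows hold it. In ACAT1 a pair of the matches overlap by 1 base. The GC content was 44.3% for BDH1, 42.3% for BDH2, 64.0% for HMGCLL1, 68.7% for OXCT1, 68.0% for ACAT1 and 77.3% for AACS. No member's window held the direct repeat known for binding PPAR with RXR (in 0.022% of windows), the sterol element TCACNCCAC (1.15%), the ATF4 element TGATGNAAT (1.02%) or the cyclic AMP element TGACGTCA (1.98%), searched on both strands. A match or its absence describes these letters in this window only.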

How the data were processed

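RNA was sequenced from 4 libraries, 2 per group. Per the submitters' processing notes, the tools included STAR 2.4, HTSeq 0.9.1 and DESeq2 with hg38; the annotation and the use of strand are not given in the sources used here. The deposited signal is a count normalised by DESeq2, per the file name. In each library, 100% of values were whole multiples, within 0.001 reads, of the lowest value above 0. The values were therefore taken as counts divided by 1 size factor per library, and whole reads were recovered. The authors' deposited table gives a mean signal, a log2 fold change, a test score and p-values.

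Genes with a mean of at least 10 were fitted with limma 3.58.1 (R 4.3.3) after a log2 transform of the normalised count with a pseudocount of 1, using a variance prior with an intensity trend, two-sided, with Benjamini-Hochberg adjustment over 20250 genes. This scale understates changes of low counts. With 2 libraries a group, exact permutation cannot go below 0.33. Treatment was the only term, since what a replicate number marks is not labelled. edgeR 4.0.16 and DESeq2 1.42.0 on recovered reads were alternatives. The limma and edgeR fits were tested on simulated counts with known changes. Lengths, GC content and overlaps came from GENCODE 29, which held 74.8% of the tested genes by symbol, and shared sequence from blastn 2.17.0 (minimum 95% identity, minimum 100 bases).

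The members, the gene lists and the tests were chosen with earlier results of these data known. The genes named were the 6 members, at most 12 called genes of the 4 other lists with a mean of at least 100 and the smallest p, listed genes under the filter, and the 2 nearest profiles of each called member. Others were named after their values were seen. Some genes of the pathway are not reported here.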

Additional observations from a re-analysis of the deposited data

How the results depend on the processing

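Under the 16 alternatives each called member kept its sign, and BDH1 kept its call under all of them. With no filter on low counts 2595 genes, 1 member and 8 other pathway genes were called, and without an intensity trend 1625, 1 and 5, against 6048, 5 and 14 under the reported settings; the cause was not tested. Leaving out one library at a time gave between 4295 and 4757 genes, 3 members each time, and between 11 and 12 other pathway genes; these fits have fewer samples, and the lone library of a group is assumed to vary like the others. HMGCLL1 then ranged from -0.15 to 0.37. Called genes were higher in 54.1% of cases, in 52.7% over genes found in GENCODE 29, in 42.3% with GC content and length trends removed, in 67.4% without the intensity trend and in 64.5% without vehicle 1. GENCODE 29 held 74.8% of the tested genes, so the GC correction covers only these, with all 6 members among them. With the longest transcript as the length, the level per kilobase was 7.05 for HMGCLL1, 306 for BDH1, 170 for BDH2, 1414 for OXCT1, 3111 for ACAT1 and 660 for AACS. The replicate numbers are shared between the groups, but there are only 2 pairs and the labels do not say what a number marks. Deviations of same-numbered libraries had a correlation of 0.126 across the 20250 genes tested and of 0.270 across the 13482 with a mean of at least 100, and a fit with a replicate block called 8376 genes, 5 members and 20 other pathway genes. Depth limits HMGCLL1, which rests on at most 23 reads in a library.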

Other observations

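Among genes of very low level, vehicle 2 most often held the highest value. For the 13560 genes whose mean lay between 1 and 10 normalised counts, the highest of the 4 libraries was vehicle 2 for 40.8%, octanoate 2 for 26.7%, vehicle 1 for 18.1% and octanoate 1 for 14.4%. Of 13482 genes with a mean of at least 100, vehicle 2 was the highest for 12.1% and vehicle 1 for 38.3%. Vehicle 2 also held a read for 37441 genes, against 34659 to 35677 in the other libraries. Of the 10 members and other pathway genes with a mean under 30, 3 were highest in vehicle 2 and 1 in vehicle 1. In octanoate 1 and octanoate 2 it was 3 each, with FGF21 and HMGCLL1 highest in octanoate 1.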
